A study of Mus musculus with 4 samples.

Results

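The cytokine TNF, its receptors and the adaptor proteins that carry its signal inside the cell were followed through RNA-seq of 4 mouse myeloid cell libraries. The members were taken by gene name. They were Tnf, the receptor genes Tnfrsf1a and Tnfrsf1b, the adaptor and kinase genes Tradd and Ripk1, Traf1 and Traf2, Birc2 and Birc3, and Cflar. All 10 were found, among 24706 genes in the files. In the libraries wt1 and wt2 the Pdcd1 gene, which encodes the inhibitory receptor PD-1, was left intact. In cko1 and cko2, from PD-1f/f; LysM-Cre mice, Cre recombinase made from the Lyz2 (LysM) locus was meant to delete a floxed part of Pdcd1 in myeloid cells. The study calls the controls wild type in its methods and PD-1f/f in its figures, so that whether they carried the floxed allele cannot be told from these sources. The labels name no treatment. The sources differ on the material, since the design text and the results describe myeloid (CD11b+) cells isolated from the liver and the methods describe RNA of whole livers of newborn pups, and the age is given as P2 in the methods and P3 in the results. Neither the number of pups per library nor their separate origin is stated, so that every p-value below measures the spread between these libraries only, which may be technical.

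TNF is made as a membrane protein that is cut from the cell surface, and it binds to TNF receptor 1 (Tnfrsf1a), found on most cell types, and TNF receptor 2 (Tnfrsf1b), found mainly on immune and endothelial cells. Receptor 1 carries a death domain and gathers TRADD, RIPK1, TRAF2 and the ubiquitin ligases cIAP1 (Birc2) and cIAP2 (Birc3), from which kinases activate NF-kB and MAP kinases. Where that complex is not stable, a caspase-8 complex forms that can kill the cell, and cFLIP (Cflar) restrains it. In myeloid cells, which are a main source of TNF, NF-kB in turn drives transcription of Tnf and of several other members, among them Birc3, Traf1 and Cflar.

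Values are FPKM, which divides the reads of a gene by its length and by the depth of the library. The libraries held between 17691505 and 22212407 counted reads, recovered from the FPKM steps. Pdcd1 itself was at 28.5 FPKM in wt1, 34.7 in wt2, 17.1 in cko1 and 21.4 in cko2, so that its transcripts remained in the cko libraries. Which exon lies between the LoxP sites is not given in the sources used here, and the value of the whole gene is no direct measure of the deletion. Itgam, which encodes CD11b, had between 48.5 and 54.3 FPKM in every library, and Ptprc (CD45) between 58.1 and 75.1 FPKM. The 4 Y-linked genes Ddx3y, Eif2s3y, Kdm5d and Uty summed to 43.9 FPKM in wt2 and to at most 0.0195 FPKM in the other libraries. Male cells were thus in wt2 and hardly in wt1, cko1 or cko2, so that the wt libraries differed in sex. The labels give no sex.

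The 10 members are protein-coding genes on the mouse genome build GRCm38, at positions identical to those of GENCODE M21. Tnf is a short gene of 2627 bp on the minus strand (chr17:35199381-35202007) whose exons together cover 1639 bp. Tnfrsf1a lies on the plus strand of chromosome 6 (chr6:125349362-125362484) and Tnfrsf1b on the minus strand of chromosome 4 (chr4:145213463-145246870). Tradd is at chr8:105258286-105264609 (minus strand) and Ripk1 at chr13:34002363-34037147 (plus strand). Traf1 (chr2:34941750-34961772) and Traf2 (chr2:25517982-25546940) both lie on the minus strand of chromosome 2. Birc2 (chr9:7818227-7837064) and Birc3 (chr9:7848699-7873186) are neighbours on the minus strand of chromosome 9 with 11634 bp between them. Cflar is on the plus strand at chr1:58711508-58758884. The values are those of whole genes, summed over exons.

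The 3 members with the largest differences between the groups on the log2(FPKM + 1) scale were Traf1, Birc3 and Tnf, and the 250 bases before the RefSeq start of each are printed to show what lies in front of them. The sequences are from RefSeq (GRCm38.p6), on the gene's own strand and 5′ to 3′, and capitals mark the letters TATAAA. The windows lie at chr17:35202008-35202257 for Tnf, chr9:7873171-7873420 for Birc3 and chr2:34961773-34962022 for Traf1, all on the minus strand. The RefSeq start of Birc3 lies inside the gene as GENCODE M21 draws it, so that the first bases of the GENCODE gene are in its window.
Tnf: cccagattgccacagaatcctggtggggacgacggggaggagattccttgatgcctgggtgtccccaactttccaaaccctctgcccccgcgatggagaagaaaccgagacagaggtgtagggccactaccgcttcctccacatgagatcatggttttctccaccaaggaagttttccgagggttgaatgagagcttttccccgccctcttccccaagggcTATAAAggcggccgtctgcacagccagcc
Birc3: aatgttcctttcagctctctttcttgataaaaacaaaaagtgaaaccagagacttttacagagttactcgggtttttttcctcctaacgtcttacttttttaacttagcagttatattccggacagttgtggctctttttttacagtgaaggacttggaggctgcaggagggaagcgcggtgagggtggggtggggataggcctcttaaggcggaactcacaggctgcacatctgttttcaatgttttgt
Traf1: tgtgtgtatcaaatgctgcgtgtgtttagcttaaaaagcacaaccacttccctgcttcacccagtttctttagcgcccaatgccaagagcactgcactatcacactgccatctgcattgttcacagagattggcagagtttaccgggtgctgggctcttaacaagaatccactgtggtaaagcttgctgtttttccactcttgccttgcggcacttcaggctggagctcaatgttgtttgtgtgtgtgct
The window of Tnf held TATAAA at position -29 from the start, and those of Birc3 and Traf1 did not hold these letters. Windows of 300 bases, 250 before and 50 after the start, were found for 9 of the 10 members (all but Tradd) and searched on both strands for the NF-kB consensus of 10 bases and for TATAAA, letters that do not overlap between the motifs. TATAAA was in the windows of 2 of the 9, Tnf and Cflar, and in 13.6% of 32851 windows of all genes. In Cflar it lay at -132 and, on the other strand, at -134. The NF-kB consensus was in 0 of the 9 and in 4.51% of all windows. That says only that these letters are not in these windows.

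Tnf was among the more abundant members, with 52.1 FPKM in wt1, 43.9 in wt2, 89.8 in cko1 and 133 in cko2. Both cko libraries lay above both wt libraries, and cko2 lay above cko1. The wt mean was 48.0 ± 5.81 FPKM (SD, n = 2) and the cko mean 111 ± 30.5 FPKM (SD, n = 2), a ratio of 2.32. These values rest on 1896 and 1353 reads in the wt libraries and on 2759 and 3856 reads in the cko libraries, and the 95% Clopper-Pearson intervals of wt1 (49.8 to 54.5 FPKM) and cko1 (86.5 to 93.2 FPKM) were far apart. Such intervals cover counting error only. On the log2(FPKM + 1) scale, which understates the change of low genes, the difference was 1.18 (SE 0.22) with an adjusted p of 0.199 (limma, Benjamini-Hochberg over 10779 genes), so that Tnf did not pass the threshold of an adjusted p under 0.05. Its unadjusted p in limma was 0.00243. The difference was 0.90 without cko2 and 1.46 without cko1. In libraries of mixed cells, more or fewer cells of a type and more or less RNA per cell cannot be told apart. This holds here and for every member below.

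**Figure D1:**
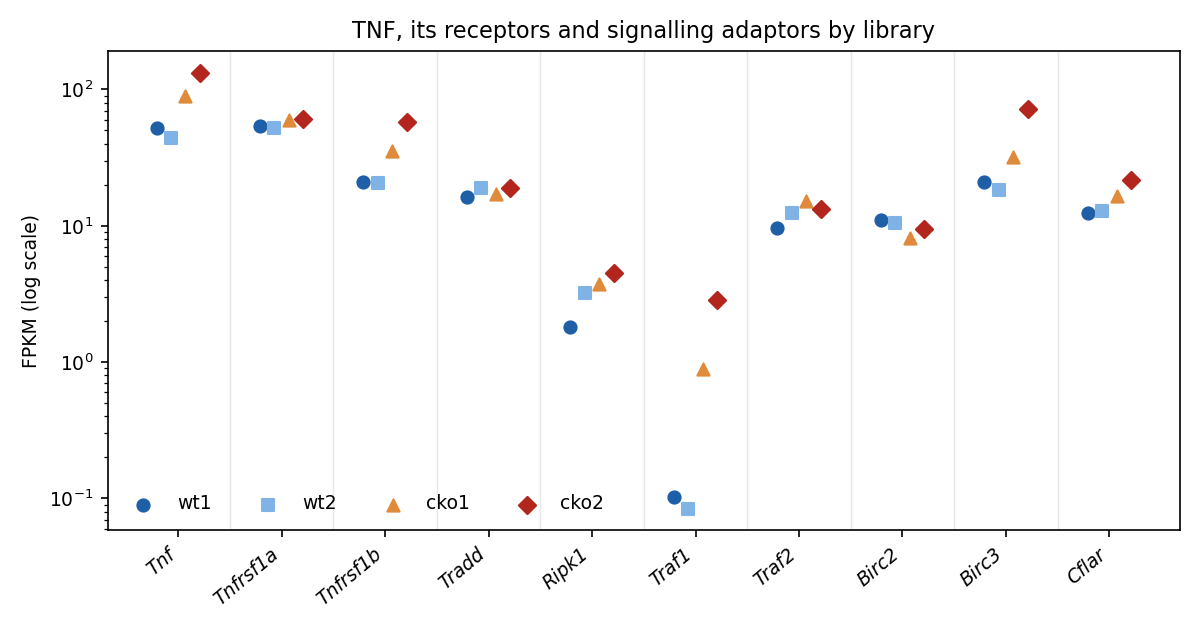
FPKM of the 10 members (x axis) in each of the 4 libraries on a log10 axis, with circles for wt1, squares for wt2, triangles for cko1 and diamonds for cko2. For 7 of the 9 tested members the cko points lie above the wt points, beside 33.6% of all genes tested. They also do for Traf1, which was not tested and spans 0.0843 FPKM in wt2 to 2.87 FPKM in cko2. Birc2 lies lower in the cko libraries, as do 18% of all genes tested, and the groups of Tradd overlap.

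The receptor genes differed in how far the groups lay apart. Tnfrsf1a, the death domain receptor, had 53.8 and 52.4 FPKM in wt1 and wt2 and 60.0 and 61.2 FPKM in cko1 and cko2. The groups did not overlap, but the ratio of the means was only 1.14, with a difference of 0.19 (SE 0.13, adjusted p = 0.502 from limma) that was 0.07 after median-of-ratios scaling. Tnfrsf1b, the receptor without a death domain, had 20.8 and 20.4 FPKM in wt1 and wt2, 35.3 FPKM in cko1 and 57.8 FPKM in cko2. Its wt libraries were nearly equal and both cko libraries lay well above them, at 1.71 and 2.81 times the wt mean. The difference was 1.10 (SE 0.25) with an unadjusted p of 0.00548 and an adjusted p of 0.212 (limma).

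A ratio between genes of the same library does not depend on the scaling of that library, so the receptors were also compared as a ratio. There were 0.386 and 0.390 FPKM of Tnfrsf1b for each FPKM of Tnfrsf1a in wt1 and wt2, 0.588 in cko1 and 0.945 in cko2. Transcripts of receptor 2 were therefore far fewer than those of receptor 1 in the wt libraries and close to them in cko2. The log2 ratio was higher in the cko libraries by 0.94 (pooled SD 0.34), a 1.92-fold difference, and by 0.60 without cko2. With 2 libraries against 2 a two-sided exact permutation test cannot give a p below 0.333, which is the value it gave here and for the other 2 ratios given below.

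Tradd and Ripk1, whose products are gathered first at receptor 1, were not alike in level. Tradd had 16.2 and 18.9 FPKM in wt1 and wt2 and 17.0 and 18.9 FPKM in cko1 and cko2. Its groups overlapped, and the difference of 0.03 (SE 0.16, adjusted p = 0.940 from limma) was below the spread between replicates and turned negative under other scalings. Ripk1, which encodes the kinase that links the receptor to survival and to death, was lower in level, with 1.82 and 3.23 FPKM in wt1 and wt2 and 3.73 and 4.47 FPKM in cko1 and cko2. The groups did not overlap, but wt2 lay nearer to cko1 than to wt1. The difference was 0.56 (SE 0.26, adjusted p = 0.352 from limma), with 0.27 without wt1 and 0.85 without wt2. Ripk1 shares 432 bp with Serpinb6a on the opposite strand, and overlaps processed pseudogenes, and the strand setting of the counting is not stated. Serpinb6a had 6.83 and 7.02 FPKM in the wt libraries and 4.79 and 5.01 FPKM in the cko libraries. The part of reads from overlapping genes in the values of Ripk1 was not tested.

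The TRAF genes encode adaptors that bind the receptors and bring in the cIAP proteins. Traf1 was the member with the lowest level and the largest ratio between the groups, at 0.102 and 0.0843 FPKM in wt1 and wt2, 0.889 FPKM in cko1 and 2.87 FPKM in cko2. These values stand for 20 and 14 reads in the wt libraries and for 147 and 448 reads in the cko libraries, so that the wt level rests on few reads. The highest upper bound of the wt intervals was 0.158 FPKM (wt1, 95% Clopper-Pearson) and the lowest lower bound of the cko intervals 0.751 FPKM (cko1). Against the wt mean, cko1 was 9.54-fold higher and cko2 30.8-fold higher, so that the cko libraries also differed widely from each other. With a mean of 0.987 FPKM over the libraries Traf1 missed the minimum mean of 1 FPKM and was not tested in the limma fit. Without that minimum its difference was 1.31 (SE 0.41, unadjusted p = 0.0295, adjusted p = 0.473). A voom fit in limma to the recovered reads gave a log2 fold change of 4.04 (SE 1.18, adjusted p = 0.232).

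Traf2 had 9.64 and 12.4 FPKM in wt1 and wt2 and 15.1 and 13.2 FPKM in cko1 and cko2. The groups did not overlap in FPKM with no scaling between libraries. Yet wt2 and cko2 were closer to each other than either was to its own replicate. The difference was 0.34 (SE 0.19, adjusted p = 0.412 from limma), and it was 0.17 without wt1 and 0.51 without wt2. After median-of-ratios scaling it was 0.23. The ratio of Traf1 to Traf2 was 0.0106 and 0.00678 in wt1 and wt2, 0.0590 in cko1 and 0.217 in cko2. Traf1 thus stayed below Traf2 in every library, while the log2 ratio differed by 3.74 between the groups (pooled SD 0.99), or 13.4-fold. It was 2.80 without cko2 and 4.68 without cko1.

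Birc2 and Birc3, the cIAP genes, lay on opposite sides. Birc2 was the one member with both cko libraries below both wt libraries, with 11.1 and 10.6 FPKM in wt1 and wt2 and 8.20 and 9.39 FPKM in cko1 and cko2. The wt mean was 1.23 times the cko mean, and the difference of -0.27 (SE 0.16) had an adjusted p of 0.439 (limma). Birc3 had 20.8 and 18.4 FPKM in wt1 and wt2, 32.0 FPKM in cko1 and 71.9 FPKM in cko2. Both cko libraries lay above both wt libraries, at 1.63 times the wt mean in cko1 and 3.66 times in cko2. The difference was 1.25 (SE 0.37) with an unadjusted p of 0.0170 and an adjusted p of 0.235 (limma), and it was 0.68 without cko2. The ratio of Birc3 to Birc2 was 1.88 and 1.75 in wt1 and wt2, 3.90 in cko1 and 7.65 in cko2. Birc3 was the more abundant of the cIAP transcripts in each library, and the log2 ratio was 1.59 higher in the cko libraries (pooled SD 0.49), a 3.01-fold difference.

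**Figure D2:**
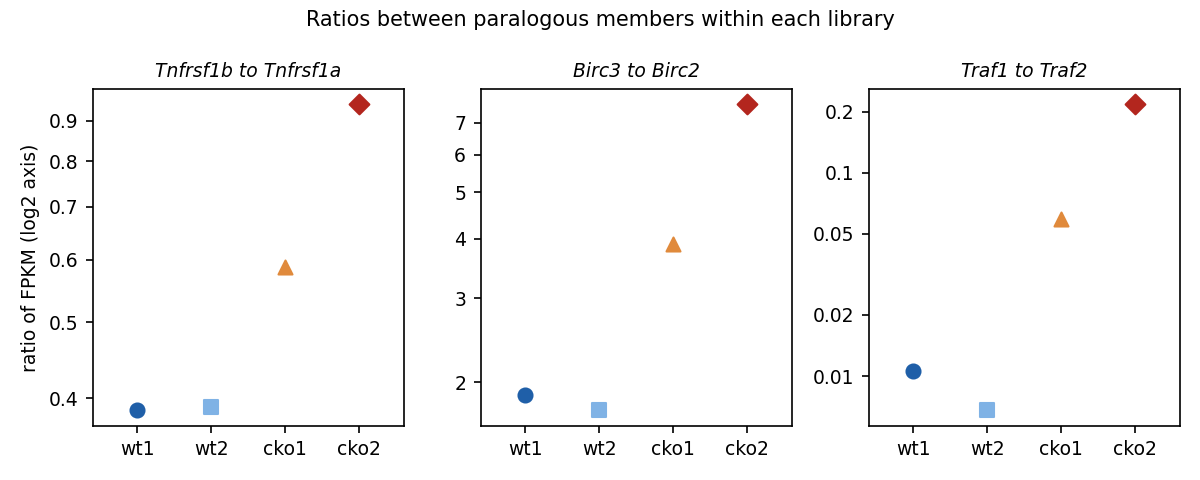
Ratio of FPKM within each library (y axis, log2 scale, a scale of its own in each panel) for Tnfrsf1b to Tnfrsf1a, Birc3 to Birc2 and Traf1 to Traf2, with 1 point per library. In each panel both cko points lie above both wt points and cko2 is the highest, at 0.945, 7.65 and 0.217.

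Cflar, which encodes the caspase-8 inhibitor cFLIP, had 12.3 and 12.8 FPKM in wt1 and wt2 and 16.7 and 21.6 FPKM in cko1 and cko2. The groups did not overlap and the wt libraries were close to each other. The cko mean was 1.52 times the wt mean, with a difference of 0.56 (SE 0.18), an unadjusted p of 0.0230 and an adjusted p of 0.251 (limma). The gene gave 3049 to 4844 reads per library, more than most other members.

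Across the members, 0 of the 9 tested passed an adjusted p under 0.05 in limma, as did 0% of the 10779 genes tested, where the smallest adjusted p was 0.129. At an unadjusted p under 0.05, 4 of the 9 were higher in the cko libraries (Tnf, Tnfrsf1b, Birc3 and Cflar) beside 11.4% of all genes tested, and 0 were lower beside 4.95% (either direction, 16.4%). That count of 4 was 2 without wt1, 3 without wt2 and 3 without cko2. At an unadjusted p under 0.01 with an absolute log2 fold change above 1, 2 of the 9 were higher (Tnf and Tnfrsf1b) beside 1.88% of all genes. That count of 2 was 0 without wt1, without wt2 or without cko2, and 3 without cko1. Both cko libraries lay above both wt libraries for 7 of the 9 tested members, beside 33.6% of all genes tested, and below them for 1 (Birc2), beside 18% of all genes. Traf1, which was not tested, also lay higher. These counts, and those for the lists and markers below, used FPKM with no scaling between libraries. They were not repeated after scaling. The median-of-ratios size factors were 0.9555 and 0.9782 for wt1 and wt2 and 1.045 and 1.055 for cko1 and cko2. With that scaling the median difference of all genes tested was -0.006 rather than 0.09. Without wt2, 8 of the 9 lay higher, with Tradd among them, beside 47.9% of all genes. Without wt1 Tradd moved to the other side, so that 2 of the 9 lay lower, beside 29.6% of all genes. The median difference of the 9 was 0.56, with 0.09 over all genes tested, and it was 0.43 without cko2. Of the 9, 8 had a higher value in cko2 than in cko1, as did 51.2% of all genes tested.

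**Figure D3:**
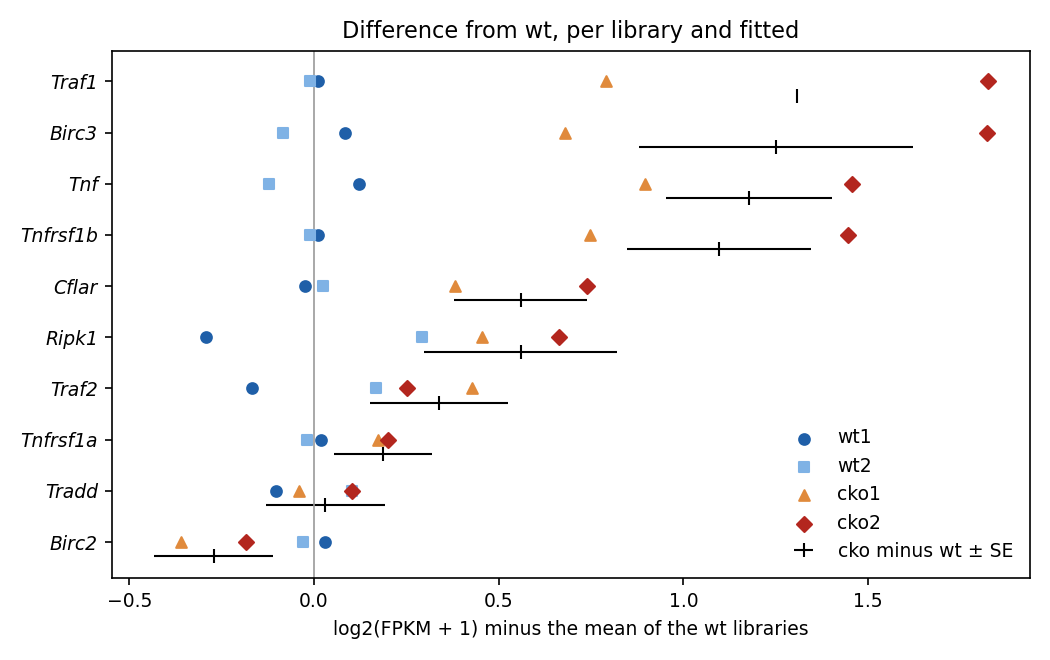
Each library's log2(FPKM + 1) minus the mean of the wt libraries (x axis) for the 10 members, ordered by the difference, with black bars for the limma difference (cko minus wt) ± SE. Traf1 has a tick with no bar since it was not tested, and for Traf1, Birc3, Tnf and Tnfrsf1b cko2 lies far to the right of cko1 (1.46 and 0.90 for Tnf).

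The order of the members by level differed between the groups mainly at the top. In the wt libraries Tnfrsf1a (mean 53.1 FPKM) led, followed by Tnf (48.0), Tnfrsf1b (20.6), Birc3 (19.6), Tradd (17.6), Cflar (12.6), Traf2 (11.0), Birc2 (10.8), Ripk1 (2.52) and Traf1 (0.0932). Neighbours whose ranges overlapped were Tnfrsf1b and Birc3, Birc3 and Tradd, Cflar and Traf2, and Traf2 and Birc2. In the cko libraries Tnf (mean 111 FPKM) led, followed by Tnfrsf1a (60.6), Birc3 (51.9), Tnfrsf1b (46.6), Cflar (19.1), Tradd (17.9), Traf2 (14.2), Birc2 (8.80), Ripk1 (4.10) and Traf1 (1.88). There the ranges of Tnfrsf1a and Birc3, of Birc3 and Tnfrsf1b, and of Cflar and Tradd overlapped. Tnf was thus below Tnfrsf1a in each wt library and above it in each cko library.

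The 5 genes with a pattern most like that of Tnf, by the Euclidean distance of log2(FPKM + 1) centred on the wt mean over the 4 libraries, were Gm15356 (distance 0.128), Ahnak (0.135), Plscr1 (0.136), Mfsd7a (0.136) and Sbno2 (0.138), out of 10778 genes compared. Plscr1, an interferon-induced gene, had 92.8 and 85.0 FPKM in the wt libraries and 172 and 230 FPKM in the cko libraries. Among the members, Tnfrsf1b was nearest to Tnf at rank 15 (distance 0.215) and Birc3 had rank 85. Birc2 was the farthest of the tested members, at rank 8721.

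The other genes of the pathway were taken from 6 lists of 89 genes, of which 85 were in the files and 56 were tested. None passed an adjusted p under 0.05, and at an unadjusted p under 0.05 in limma 13 were higher in the cko libraries and 2 were lower, beside 11.4% and 4.95% of all genes tested. Both cko libraries lay above both wt libraries for 30 of the 56 (53.6%, beside 33.6% of all genes tested) and below them for 3 (5.36%, beside 18%). For genes that work with the members at receptor 1, such as the linear ubiquitin ligase and the TAK1 and IKK kinases, 13 of 19 tested lay higher, 0 lower, and the median difference was 0.33, or 0.22 without cko2. Of these, 6 were higher at an unadjusted p under 0.05 (beside 11.4% of all genes), a count that was 3 without wt1, 2 without wt2 and 2 without cko2. Tnfaip3, whose product A20 takes ubiquitin off RIPK1 and is a known NF-kB target, had 2.80 and 2.69 FPKM in wt1 and wt2, 8.10 FPKM in cko1 and 31.2 FPKM in cko2. Its difference of 2.19 (SE 0.57, adjusted p = 0.214 from limma) was 1.28 without cko2. Tbk1, a kinase that also acts on RIPK1, had 29.6 and 27.4 FPKM in the wt libraries and 51.5 and 46.8 FPKM in the cko libraries, with cko1 above cko2 (difference 0.76, SE 0.14, adjusted p = 0.199). Tab2, which binds ubiquitin for TAK1, and Rnf31, the catalytic part of the linear ubiquitin ligase, differed by 0.59 (SE 0.16) and 0.58 (SE 0.19).

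Of the genes of TNF-induced cell death, 5 of 10 lay higher and 2 lower, beside 33.6% and 18% of all genes tested. Their median difference was 0.22. Ripk3, the kinase of necroptosis, had 32.9 and 35.2 FPKM in the wt libraries and 52.5 and 58.2 FPKM in the cko libraries (difference 0.68, SE 0.14, adjusted p = 0.206 from limma). The MAP kinase genes Map3k5 (ASK1) and Mapk8 (JNK1) differed by 0.72 (SE 0.18) and 0.76 (SE 0.21).

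Of the genes that shed and process TNF, 3 of 5 tested lay higher and 0 lower, beside 33.6% and 18% of all genes tested. Their median difference was 0.40, with 0.19 without cko2 and 0.63 without cko1. Rhbdf2 encodes iRhom2, which brings the TNF-cutting protease to the surface of myeloid cells. It had 9.82 and 9.51 FPKM in wt1 and wt2 and 18.2 and 19.3 FPKM in cko1 and cko2. Both groups were tight, and the difference was 0.89 (SE 0.15, adjusted p = 0.183 from limma), and 0.85 to 0.93 with each library left out in turn. Adam17, the protease itself, had 8.22 and 7.82 FPKM in the wt libraries and 9.66 and 12.98 FPKM in the cko libraries (difference 0.44, SE 0.19, adjusted p = 0.334, with 0.24 without cko2). Sppl2a, which cuts the stub left in the membrane, differed by 0.40 (SE 0.26) with all libraries and by 0.05 without cko2, since its 10.2 FPKM in cko1 was close to the 10.03 FPKM of wt1.

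Of the other TRAF genes, 3 of 7 tested lay higher and 1 lower, beside 33.6% and 18% of all genes tested. Their median difference was 0.17. Traf3, Traf6 and Traf4 differed by 0.48 (SE 0.23), 0.42 (SE 0.21) and 0.17 (SE 0.24). Without cko2 the difference was 0.26 for Traf3 and 0.24 for Traf6, and without wt2 it was 0.10 for Traf4 and 0.25 for Traf6. Traf3ip3, an adaptor that binds TRAF3, was the one that lay lower, with 38.1 and 36.9 FPKM in the wt libraries and 27.5 and 22.7 FPKM in the cko libraries (difference -0.57, SE 0.16, adjusted p = 0.227 from limma).

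Of the other ligands of the TNF superfamily only 3 reached the minimum mean. Tnfsf14 (LIGHT) was the one that lay higher, with 8.52 and 9.23 FPKM in the wt libraries and 10.045 and 16.9 FPKM in the cko libraries. Its difference of 0.51 (SE 0.26, adjusted p = 0.378 from limma) was 0.16 without cko2. Lta and Ltb, the neighbours of Tnf on chromosome 17, were chosen after their values were seen. Ltb had 32.0 and 35.5 FPKM in wt1 and wt2 and 29.5 and 51.6 FPKM in cko1 and cko2, with overlapping groups. Lta was near the limit of detection, at 3 and 11 reads in the wt libraries and 35 and 23 reads in the cko libraries. Of the other receptors of the superfamily, 5 of 12 tested lay higher and 0 lower, beside 33.6% and 18% of all genes tested. Their median difference was 0.27. Fas, the death receptor, had 5.999 and 8.17 FPKM in wt1 and wt2, 9.12 FPKM in cko1 and 24.5 FPKM in cko2, so that its difference of 1.003 (SE 0.44) was 0.34 without cko2. Ltbr, the lymphotoxin beta receptor, differed by 0.52 (SE 0.17), Tnfrsf12a by 0.67 (SE 0.24) and Relt by 0.30 (SE 0.16). The value of Tnfrsf12a was 0.44 without cko2 and that of Relt 0.16 without wt2.

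**Figure D4:**
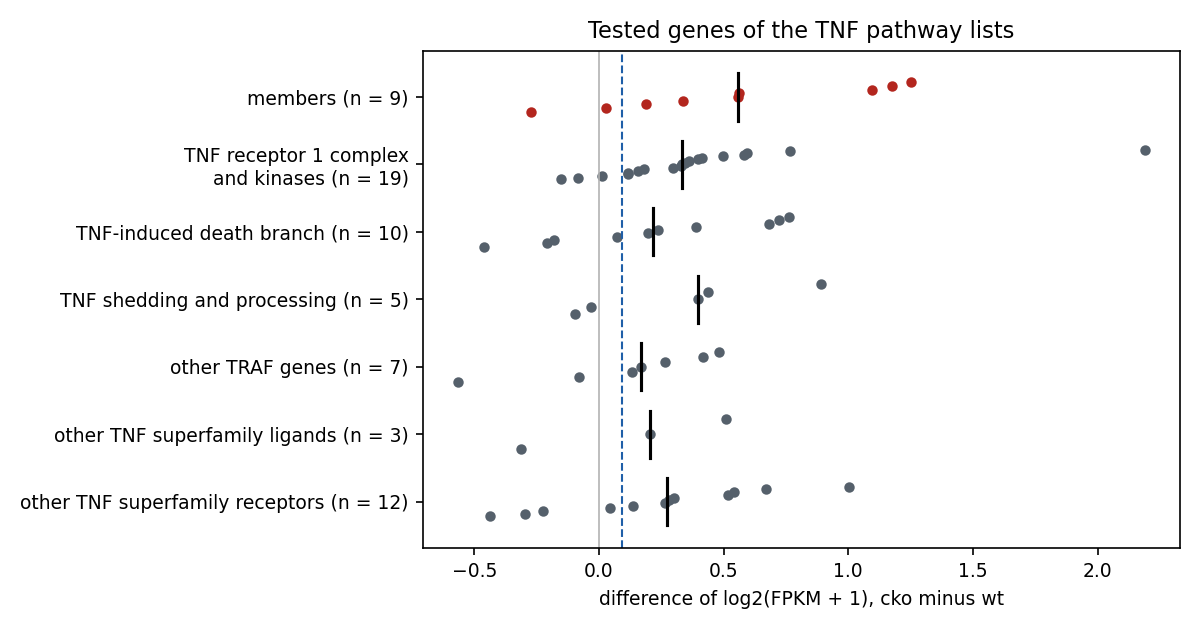
Difference in log2(FPKM + 1), cko minus wt (x axis), of each tested gene of the members (red) and of the 6 pathway lists (grey), with a black bar at each list's median and a dashed line at the median of all 10779 genes tested (0.09). The medians lie at 0.56 for the members and between 0.17 and 0.40 for the lists, and the point farthest to the right is Tnfaip3 (2.19).

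Markers of several cell types in the liver also differed between the libraries. For comparison with the counts below, both cko libraries lay above both wt libraries for 33.6% of all genes tested and below them for 18%. Of the 8 monocyte markers 3 lay higher in the cko libraries and 1 lower, and the groups of the other 4 overlapped. Their summed level was 488 to 512 FPKM in the wt libraries, 502 FPKM in cko1 and 635 FPKM in cko2. The markers Csf1r and Adgre1 were chosen after values were seen. Csf1r, a marker of monocytes and macrophages, had 40.9, 33.0 and 45.6 FPKM in wt1, wt2 and cko1 and 113 FPKM in cko2. Adgre1 had 7.27 and 5.37 FPKM in wt1 and wt2 and 4.64 and 10.03 FPKM in cko1 and cko2, with overlapping groups. The 10 macrophage markers summed to 263 to 385 FPKM in the wt libraries and 265 to 447 FPKM in the cko libraries, with 1 of 9 tested higher and 0 lower. Of the 12 neutrophil markers 3 lay higher and 7 lower, and their summed level was 136680 to 160920 FPKM in the wt libraries and 91632 to 110300 FPKM in the cko libraries. Lyz2, the locus that carries Cre, had 31306 and 32147 FPKM in wt1 and wt2 and 10422 and 8127 FPKM in cko1 and cko2. With the neutrophil and Lyz2 transcripts, the share of all FPKM held by the 10 most abundant genes differed too, at 42.3% to 46.6% in the wt libraries and 29.4% to 33.1% in the cko libraries. The 10 erythroid markers summed to 2357 to 3748 FPKM in the wt libraries and 1439 to 1540 FPKM in the cko libraries (0 of 10 higher, 7 lower), and the 10 hepatocyte markers to 85.1 to 144 FPKM and 60.0 to 72.1 FPKM (0 of 7 tested higher, 4 lower), with Cps1 listed at 0 in at least 1 library. B cell markers (0 of 7 tested higher, 6 lower) summed to 56.3 and 70.6 FPKM in the wt libraries and 35.7 and 46.3 FPKM in the cko libraries. T and NK cell markers (0 of 4 tested higher, 3 lower) summed to 69.0 and 47.4 FPKM in the wt libraries and 37.5 and 32.1 FPKM in the cko libraries, with Cd3e, Cd4 and Trac listed at 0 in at least 1 library. The part of these transcripts in the differences of the members was not tested.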

How the data were processed

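Total RNA of 4 libraries labelled as myeloid cells (2 wt and 2 cko) was sequenced on an Illumina HiSeq platform. The authors deposited FPKM per gene, 1 file per library, with no scaling between libraries. The submitters' processing notes name Bowtie2 2.2.3, TopHat2 2.0.12, HTSeq 0.6.0 and the build mm9, whereas 92.61% of the gene positions, those of the 10 members included, are identical to GENCODE M21 on GRCm38. Since FPKM of single-exon genes were whole multiples of 1 read, reads were recovered with annotated exon lengths for 91.29% of the genes (22553, tolerance 0.02 reads), the 10 members included. A read in a gene of 1 kb is worth 0.0450 to 0.0565 FPKM, which sets the precision of low values.

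Groups were taken from the labels and compared on log2(FPKM + 1), with no covariate, over the 10779 genes whose mean reached 1 FPKM, by linear models of limma 3.58.1 (R 4.3.3) with trended eBayes moderation. The threshold of the study's methods was used (absolute log2 fold change of at least 1 and Benjamini-Hochberg adjusted p under 0.05), and counts at unadjusted p-values are given beside the share of all genes. Ratios within a library were compared with exact two-sided permutation tests (3 tests, Python 3.11.15, scipy 1.17.1). The members and lists were chosen with earlier results of these data known, and support nothing on their own. Named were the members, Pdcd1 and Lyz2, at most 4 genes per pathway list with the largest difference among those whose groups did not overlap, and the 5 genes most like Tnf. A result that the rule also names is not reported here. Serpinb6a, Lta, Ltb, Csf1r, Adgre1, Itgam and Ptprc, the search for TATAAA and the choice of promoters printed came after values were seen. Alternatives were pseudocounts of 0.1 and 0.01, quantile and median-of-ratios scaling, no filter, a filter at 5 FPKM, untrended eBayes, a replicate block, voom on recovered reads (mean of at least 10 reads) and each library left out in turn. Figures were drawn with matplotlib 3.10.9.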

Additional observations from a re-analysis of the deposited data

How the results depend on the processing

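With 2 libraries per group, differences such as that of Ripk1 cannot be separated from the spread between libraries, and below about 1 FPKM few reads limit the values. Against 0 genes past the threshold, limma-voom on recovered reads called 2 genes, and 247 genes passed an absolute log2 fold change above 1 with an unadjusted p under 0.01 and 1768 an unadjusted p under 0.05. Of the 247, 203 were higher and 44 lower, against 142 and 71 after median-of-ratios scaling and 150 and 79 after quantile normalization, which moved the median of all genes by 0.12 on the log2 scale. The sign of Tradd, 0.03, turned to -0.0822 with median-of-ratios scaling and to -0.0692 with quantile normalization, and ranged from -0.0723 to 0.133 with each library left out in turn. The other members kept their direction under the alternatives that gave them a value (for Traf1 only no filter and voom), with adjusted p-values of 0.0752 to 0.615 for Tnf. Ripk1 and Traf1 had no value at a minimum mean of 5 FPKM. Nothing in the sources pairs libraries by replicate number, and with the replicate block 0 genes passed the threshold and 258 the unadjusted p and fold. The deviations of same-numbered libraries had a correlation across genes of -0.16, and the crossed replicate block, chosen after seeing the data, called 1 gene, and 363 by unadjusted p and fold. The voom fit put 4 members past an unadjusted p under 0.01 with the fold, the crossed block 3, and no filter and median-of-ratios scaling 1 each, against 2. The causes of these shifts were not tested.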
